A study of Sus scrofa with 4 samples.

Results

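The proteasome is the protease that degrades most ubiquitin-tagged proteins of the cytosol and nucleus. The genes described here are 34 genes that carry the names of its standard subunits. They were taken by name from the deposited tables, as every mRNA whose symbol is PSMA, PSMC or PSMD followed by a number, or PSMB followed by a number from 1 to 7, and they make up 34 of the 16192 mRNAs and of the 31567 features listed. Of them, 7 form the alpha ring and 7 the beta ring of the 20S core, and 6 are the ATPases of the 19S cap. The other 14 carry names of non-ATPase proteins of the cap. Of these 14, PSMD5, PSMD9 and PSMD10 are chaperones that help to assemble the base of the 19S cap and leave it afterwards. By their names they are counted among the 34 subunits and the 14 non-ATPases below. The genes lie on 13 chromosomes, with 6 on chromosome 12 and 5 on chromosome 1, so that they are not a cluster.

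In the working proteasome, a substrate is captured by its ubiquitin chain on the non-ATPase proteins, the chain is cut off by PSMD14, and the ring of PSMC ATPases unfolds the protein and feeds it through the gate of the alpha ring. Inside, PSMB5, PSMB6 and PSMB7 cut the chain after hydrophobic, acidic and basic residues, respectively. Each subunit is needed in a fixed number per particle, and in fat cells the proteasome is known for the turnover of regulators such as PPARG, the main transcription factor of adipocyte differentiation.

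Preadipocytes were isolated from the subcutaneous fat of male 5-day-old Erhualian piglets and grown to confluence (D0), then received dexamethasone, 3-isobutyl-1-methylxanthine and insulin until D2, insulin alone until D4, and plain growth medium until D8. At each stage equal amounts of RNA from 3 piglets were pooled into 1 rRNA-depleted, strand-specific library. There are therefore 4 libraries and no replicates, a stage and its library cannot be told apart, and differences between stages could not be tested. Every log2 ratio below is that of the deposited FPKM (fragments per kilobase of gene model relative to library size, with 0.01 added), and its 95% interval covers only the error of counting reads. Where 4 values of a gene are given, they are those of D0, D2, D4 and D8 in this order, and positions are on Sscrofa11.1.

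The libraries held between 54128151 (D8) and 75387428 (D0) counted fragments. The 7 adipocyte markers summed to 121, 484, 1715 and 2066 FPKM at D0, D2, D4 and D8. Only FABP4 (853 and 1557 FPKM) and CIDEC (5.01 and 54.6 FPKM) were higher at D8 than at D4. ADIPOQ, PLIN1 (215 and 90.3 FPKM), PPARG, CEBPA and LPL were lower at D8 than at D4. The 4 markers of preadipocytes and fibroblasts summed to 452, 594, 459 and 363 FPKM. These cells therefore carried the transcripts of their labelled type. Markers of endothelial (3 genes), immune (3), skeletal muscle (2) and epithelial cells (3) summed to at most 2.57, 0.344, 0.478 and 1.79 FPKM in any library. Markers of dividing cells (MKI67, TOP2A, CCNB1 and CDK1) summed to 67.9, 6.63, 28.2 and 43.7 FPKM.

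All 34 subunits were reliably expressed, which means an FPKM of 1 or more in 3 or more libraries, as were 9191 of the 16192 mRNAs. Their sums were 4071, 3270, 3100 and 3588 FPKM at D0, D2, D4 and D8. The sum was thus highest before induction, lowest at D4 and in between at D8, where it had regained part of the difference. As a share of the FPKM of all mRNAs the sums were 0.992%, 0.860%, 0.777% and 0.869%, respectively. The median subunit had 100, 85.8, 78.5 and 90.0 FPKM, whereas the median reliably expressed mRNA stood between 7.27 (D8) and 8.51 FPKM (D4). Since the libraries are of whole cultures, fewer cells with these transcripts and less of them per cell cannot be told apart.

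**Figure D1:**
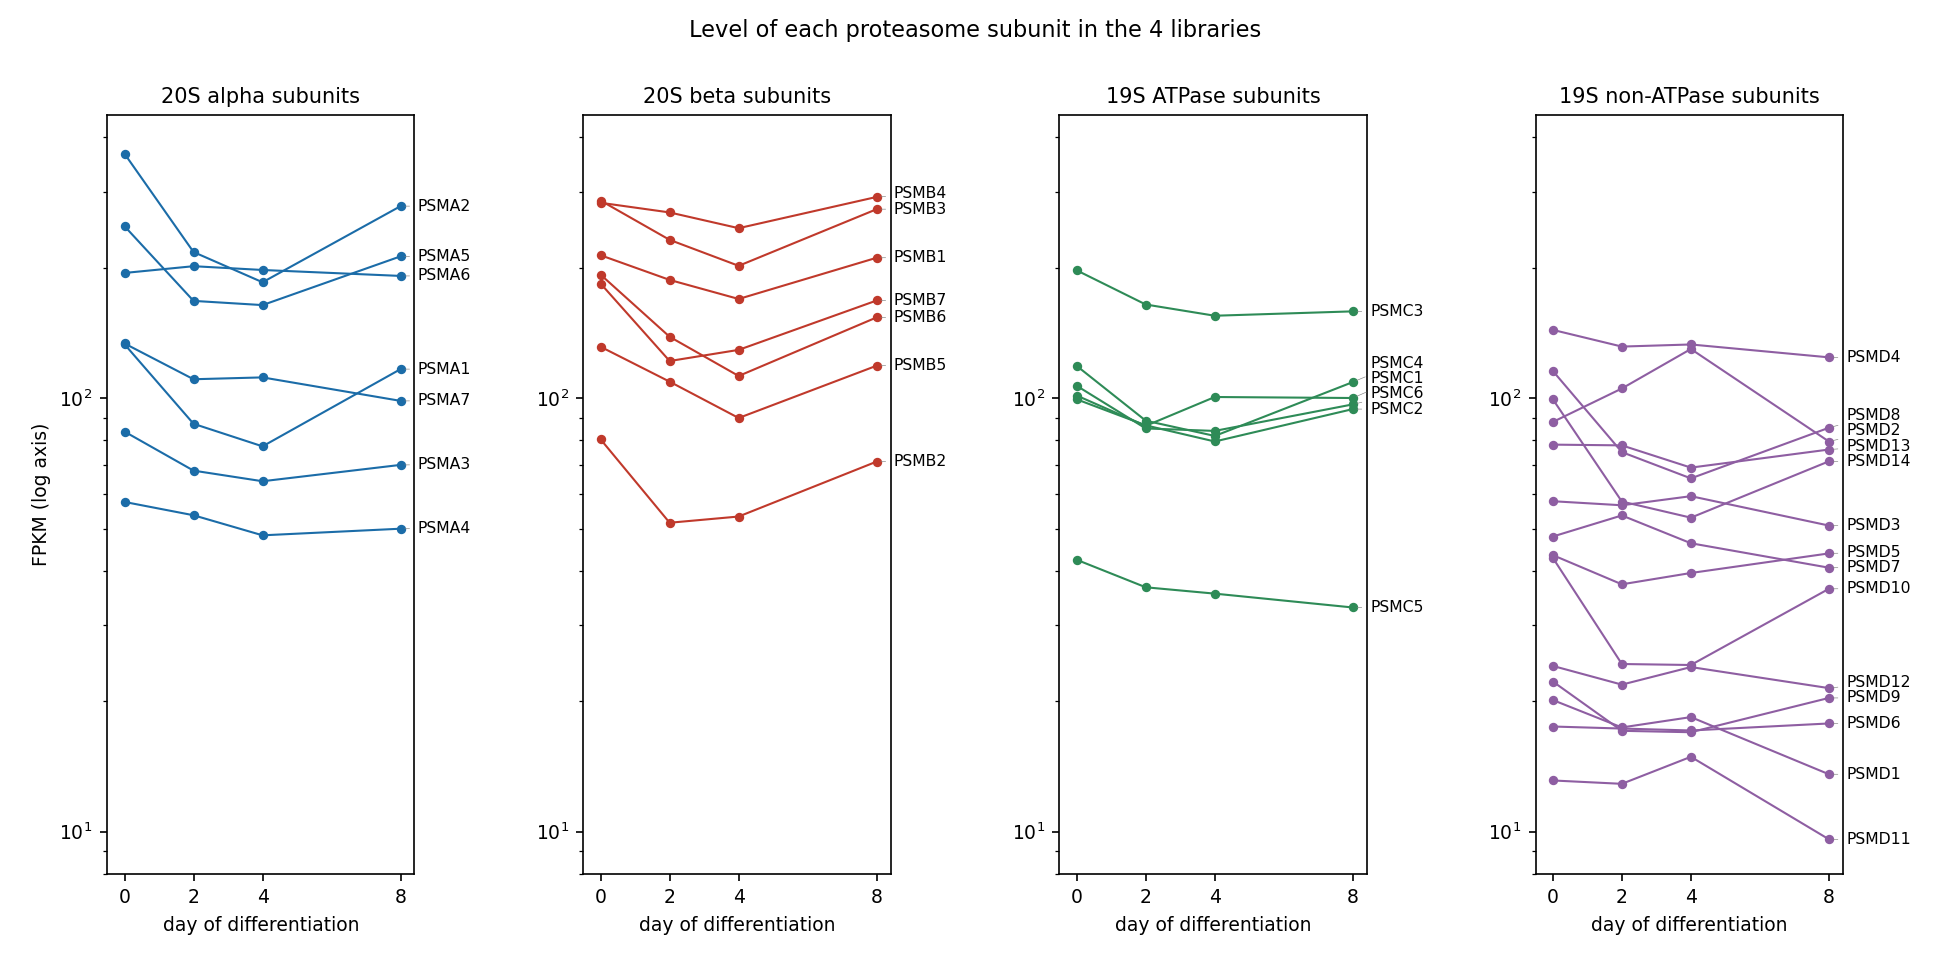
Level of the 34 subunits in the 4 libraries, in FPKM on a log axis, against the day of differentiation, with 1 line per gene and 1 panel per class. Most lines of the core (left panels) dip at D2 or D4 and come back at D8, whereas PSMD2 peaks at D4 with 130 FPKM.

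The order of the stages was shared by many subunits. Of the 34, 26 had their highest FPKM at D0 and 20 their lowest at D4, against 36.5% and 17.5% of all reliably expressed mRNAs. The pattern of a level at D0 above those of D2 and D4, with D8 above D4, was seen for 23 subunits, against 27.9% of mRNAs. Neither the counts by stage nor this pattern were among the results planned beforehand. The summed FPKM of the same subunits has this pattern too, so that its share among them is a description. After the libraries were scaled by the median ratio of all mRNAs, the pattern was seen for 26 subunits and 28 were lowest at D4, but only 16 were highest at D0 and 14 were highest at D8. The shares of mRNAs moved with this scaling too, to 34.8% with the pattern, 27.5% lowest at D4 and 31.9% highest at D0. Scaled to the total of mRNA FPKM, 22 were highest at D0, 19 were lowest at D4 and 18 showed the pattern, against 33.0%, 18.4% and 24.0% of mRNAs. Which of D0 and D8 held the top thus depended on the scaling, while D4 was the most frequent low under each of the 3. As deposited, the order D0, D8, D2, D4 from high to low was the most frequent, with 15 subunits, against 9.24% of mRNAs. PSMA6, PSMA7, PSMC1, PSMC5, PSMD1, PSMD2, PSMD3, PSMD4, PSMD7, PSMD11 and PSMD12 were the 11 subunits without the pattern as deposited, of which 7 were non-ATPases of the cap and none belonged to the beta ring.

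For the 7 alpha subunits, which form the outer rings and the gate of the core, summed FPKM was 1219, 907, 849 and 1017 at the successive stages. PSMA2, at chr18:51909399-51919859 of Sscrofa11.1, was the most abundant of all subunits at D0. Its FPKM was 367 at D0, 217 at D2, then 185 at D4 and 278 at D8. At D4 it thus stood at 50.5% of its D0 level, and its log2 ratio between D4 and D0 of -0.99 (95% interval -1.02 to -0.96) was the lowest of the 34. PSMA1 (chr2:44740102-44755296) followed the same order at 133, 87.3, 77.5 and 117 FPKM. Its log2 ratio between D8 and D4 of 0.59 (0.53 to 0.66) was the highest of all subunits, with those of PSMD10 and PSMA2 within its interval. PSMA6 (chr7:64578247-64603351), by contrast, stayed within a narrow range of 192 to 202 FPKM in the 4 libraries. PSMA4, the least abundant alpha subunit by its mean, ranged from 48.3 (D4) to 57.6 FPKM (D0), so that alpha subunits differed by up to 6.36 times in level within a library although the ring holds each of them equally.

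The 7 beta subunits form the inner rings of the core, and their summed FPKM was 1371, 1109, 1004 and 1288 at D0, D2, D4 and D8. The catalytic subunit PSMB5 (chr7:76014576-76021922) had 131, 109, 90.0 and 119 FPKM in that order. PSMB6 (chr12:52096009-52098164), also catalytic, had 193, 139, 113 and 154 FPKM. PSMB7 (chr1:265172257-265235389), the remaining catalytic subunit, had 184, 122, 129 and 168 FPKM. All 3 catalytic transcripts were thus highest at D0 and second highest at D8 as deposited, with the lowest value at D4, or at D2 for PSMB7, but with median-ratio scaling PSMB5 and PSMB7 were at least as high at D8 (log2 ratios between D8 and D0 of 0.011 and 0.026). Their log2 ratios between D4 and D0 were -0.55 for PSMB5, -0.78 (-0.81 to -0.74) for PSMB6 and -0.51 for PSMB7. Between D8 and D4 the 7 beta subunits stood close together, with log2 ratios from 0.24 for PSMB4 to 0.45 for PSMB6. PSMB4 was the most abundant beta subunit by its mean (283, 268, 247 and 291 FPKM) and PSMB2 the least abundant (80.4, 51.6, 53.3 and 71.4 FPKM). Both are structural subunits without an active site.

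Among the 6 ATPases, which form the motor ring at the base of the cap, summed FPKM was 666, 548, 537 and 592 at the successive stages. PSMC3, the most abundant, had 197, 165, 155 and 159 FPKM, and PSMC5, the least abundant, had 42.4, 36.6, 35.4 and 32.9 FPKM. PSMC5 was the only member of the 34 whose level was lower at each stage than at the one before, although its interval for D4 vs D2 held 0 and median-ratio scaling turned its ratio for D8 vs D4 to 0.10. Its model, at chr12:15101946-15106326, shares 685 bases with FTSJ3 on the other strand (8.43, 14.8, 14.9 and 7.07 FPKM). PSMC1 had 101, 86.4, 101 and 100 FPKM, so that only the D2 library was lower, and its intervals for D4 and D8 against D0 held 0. Whether the counting used the strand is not given in the sources used here, and where a subunit overlaps a gene of the other strand, as do PSMA3, PSMA7, PSMC1, PSMC4, PSMC5, PSMD6, PSMD8 and PSMD10, reads of both cannot be told apart.

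The 14 non-ATPases were the most divided class, with sums of 814, 706, 711 and 691 FPKM. PSMD14, the deubiquitinase of the lid (chr15:68107379-68208884), had 99.5, 57.8, 53.0 and 71.5 FPKM. PSMD8, a lid subunit at chr6:47289891-47297059, had 116, 75.1, 65.3 and 85.5 FPKM, and the antisense transcript within it, MSTRG.58524, had 2.93, 2.63, 1.78 and 0.519 FPKM. PSMD10, an assembly chaperone also known as gankyrin (chrX:88540261-88548593), had 42.8, 24.4, 24.2 and 36.3 FPKM. These 3 genes shared the low at D2 and D4, and all 3 were still below D0 at D8.

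PSMD2 moved against them. This scaffold of the cap base, which binds ubiquitin-like domains of shuttle factors, lies at chr13:122187500-122199397 and had 88.2, 105, 130 and 79.5 FPKM, the highest value being that of D4. Its log2 ratio between D4 and D0 of 0.56 (0.53 to 0.59) was the highest of the 34, and that between D8 and D4 of -0.71 (-0.74 to -0.68) the lowest. It stood in 20th place among the subunits by level at D0, in 13th at D2, in 9th at D4 and in 19th at D8. The ratio of PSMD2 to PSMD14 in FPKM was accordingly 0.886, 1.82, 2.45 and 1.11. PSMD1, the other large scaffold of the cap base, did not share the peak. It had 20.1, 17.4, 18.4 and 13.6 FPKM, with a log2 ratio between D8 and D0 of -0.57 (-0.64 to -0.50) that was the lowest of the 34. PSMD11, a lid subunit (chr12:42498711-42529853), was highest at D4 at low levels throughout, with 13.1, 12.9, 14.9 and 9.60 FPKM. It was the least abundant subunit in each library, and PSMD4, the ubiquitin receptor, was the most abundant non-ATPase by its mean, with 144, 132, 133 and 124 FPKM.

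A few more non-ATPases belonged to the extremes of a comparison. PSMD7, a lid subunit that pairs with PSMD14, was highest at D2 (48.0, 53.7, 46.3 and 40.6 FPKM). PSMD3, a lid subunit, had 57.9, 56.6, 59.4 and 50.8 FPKM. PSMD6, also of the lid, varied least in this class, with 17.5, 17.3, 17.1 and 17.8 FPKM, and the chaperone PSMD5 had 43.5, 37.2, 39.5 and 43.9 FPKM. The remaining subunits not named with values here were within the range from 17.0 to 286 FPKM in each library.

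Between D0 and D2, the days under the hormone cocktail, 31 subunits were lower and 3 were higher (PSMA6, PSMD2 and PSMD7), while 52.0% of the 9191 mRNAs were lower. The median log2 ratio was -0.25 over the subunits and -0.03 over all mRNAs. At least 1.5-fold lower were 7 subunits, PSMA1, PSMA2, PSMB2, PSMB7, PSMD8, PSMD10 and PSMD14, against 20.1% of mRNAs, and none was at least 1.5-fold higher, against 15.6%. The share past 1.5-fold in the lower direction, 7 of 34, was thus close to the background. It was 5 with median-ratio scaling, against 18.8% of mRNAs, and 3 with scaling to the total of mRNA FPKM, against 16.6%. No subunit reached 2-fold, against 6.67% of mRNAs higher and 10.1% lower. The lowest log2 ratios were -0.81 (-0.89 to -0.74) for PSMD10, -0.78 (-0.83 to -0.74) for PSMD14 and -0.75 (-0.79 to -0.72) for PSMA2, and the highest 0.26 (0.23 to 0.29) for PSMD2. With the FPKM scaled to the total of mRNA FPKM, which raised the median of all mRNAs by 0.11, 25 subunits were lower, and with median-ratio scaling 27 were. The markers of dividing cells were also at their lowest in the D2 library, and their part in these values was not tested.

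From D2 to D4, when insulin alone was given, the differences were small. Of the subunits, 23 were lower, against 37.5% of mRNAs, and 11 were higher, against 62.5%. Under median-ratio scaling 30 were lower, and under scaling to the mRNA total 27 were. None differed at least 1.5-fold, whereas 11.7% of mRNAs were at least 1.5-fold higher and 2.96% lower, and 2-fold was reached by 4.24% and 0.838% of mRNAs and by no subunit. The median log2 ratio was -0.04 for the subunits and 0.09 for all mRNAs. PSMB6 (-0.30), PSMB5 (-0.28) and PSMA2 (-0.23) had the lowest ratios, and PSMD2 (0.30), PSMC1 (0.22) and PSMD11 (0.21) the highest. For 10 subunits the counting interval held 0, so that a difference was not detectable at this depth.

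From D4 to D8 the direction turned for most subunits. Of them, 23 were higher, against 35.1% of mRNAs, and 11 lower, against 64.9%. The median log2 ratio was 0.18 over the subunits and -0.21 over all mRNAs. Relative to the median mRNA, 30 of the 34 were higher, by a median of 0.39. PSMD1, PSMD2, PSMD3 and PSMD11 were the exceptions. The median mRNA covers all levels, with 5106 mRNAs under a mean of 10 FPKM, where no subunit lay. For mRNAs of 50 to 100 and of 100 to 200 FPKM the medians were 0.023 and 0.087. The 11 subunits in each of these ranges had medians of 0.20 and 0.32. The other ranges are given with the gene lengths below. Only PSMA1 was at least 1.5-fold higher, against 9.92% of mRNAs, and PSMD10 and PSMA2 stood just under that limit at a log2 ratio of 0.58 each. PSMD2 and PSMD11 (-0.63, -0.72 to -0.55) were at least 1.5-fold lower, against 25.9% of mRNAs, followed by PSMD1 (-0.44). None reached 2-fold, against 4.43% of mRNAs higher and 10.1% lower. Median-ratio scaling, which raised the median of all mRNAs by 0.21 in this comparison, gave 11 subunits at least 1.5-fold higher, none lower by that much, and 4 lower by any amount, with 15.5% of mRNAs at least 1.5-fold higher and 16.0% lower.

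**Figure D2:**
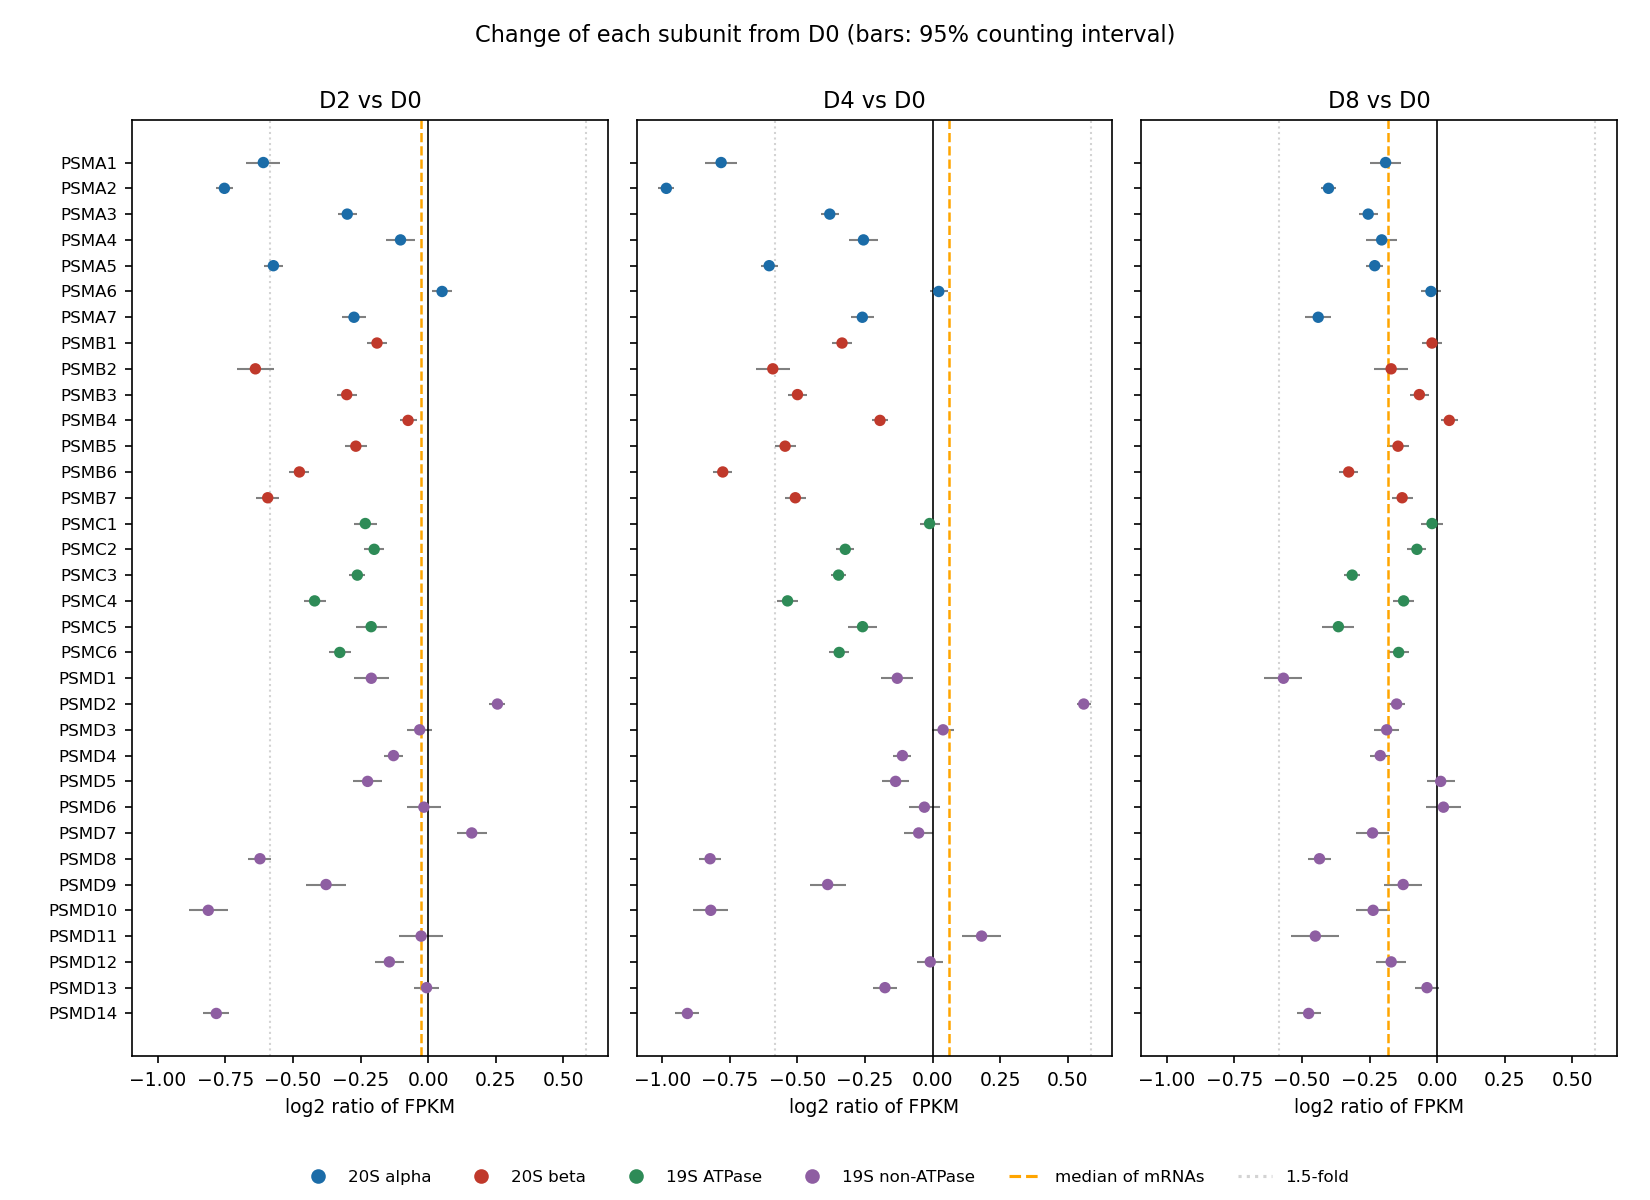
Log2 ratio of FPKM of each subunit at D2, D4 and D8 against D0, with its 95% counting interval as a bar, the median of the 9191 reliably expressed mRNAs as a dashed line and 1.5-fold as dotted lines. The 3 panels share the D0 library, and at D8 the subunits lie on both sides of the dashed line, 17 above and 17 below.

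Over the whole of D0 to D4, 30 subunits were lower, against 46.2% of mRNAs, and 4 higher, against 53.8%. Relative to all mRNAs, 32 were below the median mRNA, all but PSMD2 and PSMD11. The median log2 ratio was -0.33 for the subunits and 0.06 for all mRNAs. At least 1.5-fold lower were 8 subunits, PSMA1, PSMA2, PSMA5, PSMB2, PSMB6, PSMD8, PSMD10 and PSMD14, against 17.5% of mRNAs, and none was at least 1.5-fold higher, against 22.0%. At 2-fold, 10.4% of mRNAs were higher and 8.81% lower, and no subunit was, except that median-ratio scaling moved PSMA2 to -1.04. After PSMA2, the lowest ratios were those of PSMD14 (-0.91, -0.95 to -0.86) and PSMD8 (-0.82, -0.86 to -0.78). After PSMD2, the highest were those of PSMD11 (0.18, 0.11 to 0.25) and PSMD3 (0.04, -0.0024 to 0.08).

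Between D0 and D8, 31 subunits were lower, against 68.5% of mRNAs. The median log2 ratio was -0.18 for the subunits and -0.18 for all mRNAs, with 17 subunits on either side of the median mRNA. None differed by 1.5-fold, against 6.92% of mRNAs higher and 14.6% lower, or by 2-fold, against 3.60% and 3.68%. With median-ratio scaling only 19 subunits were lower, so that the direction of this comparison rested on the scaling. PSMB4 (0.04), PSMD6 (0.023) and PSMD5 (0.013) had the highest ratios, and PSMD1, PSMD14 (-0.48) and PSMD11 (-0.45) the lowest. The 5 comparisons share libraries, and an agreement between them is not independent.

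The classes differed in the size of these shifts. Relative to the median mRNA, the median log2 ratio between D4 and D0 was -0.57 for the beta ring, -0.44 for the alpha ring, -0.39 for the ATPases and -0.18 for the non-ATPases. Between D8 and D4 it was 0.61 for the beta ring, 0.34 for the alpha ring, 0.33 for the ATPases and 0.19 for the non-ATPases. The beta ring, which holds the active sites, thus stood farthest from the median mRNA in both, and the non-ATPases, which held both the lowest and the highest ratios of the cap, stood nearest to it. Without PSMD5, PSMD9 and PSMD10, the median of the remaining 31 subunits between D4 and D0 was -0.32, against -0.33 for all 34, that between D4 and D2 was -0.081 against -0.040, and that between D8 and D4 was 0.14 against 0.18. The spread between subunits, as the SD of their log2 ratios, was 0.34 for D4 vs D0 and 0.16 for D8 vs D0, against 0.98 and 0.68 over all mRNAs.

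**Figure D3:**
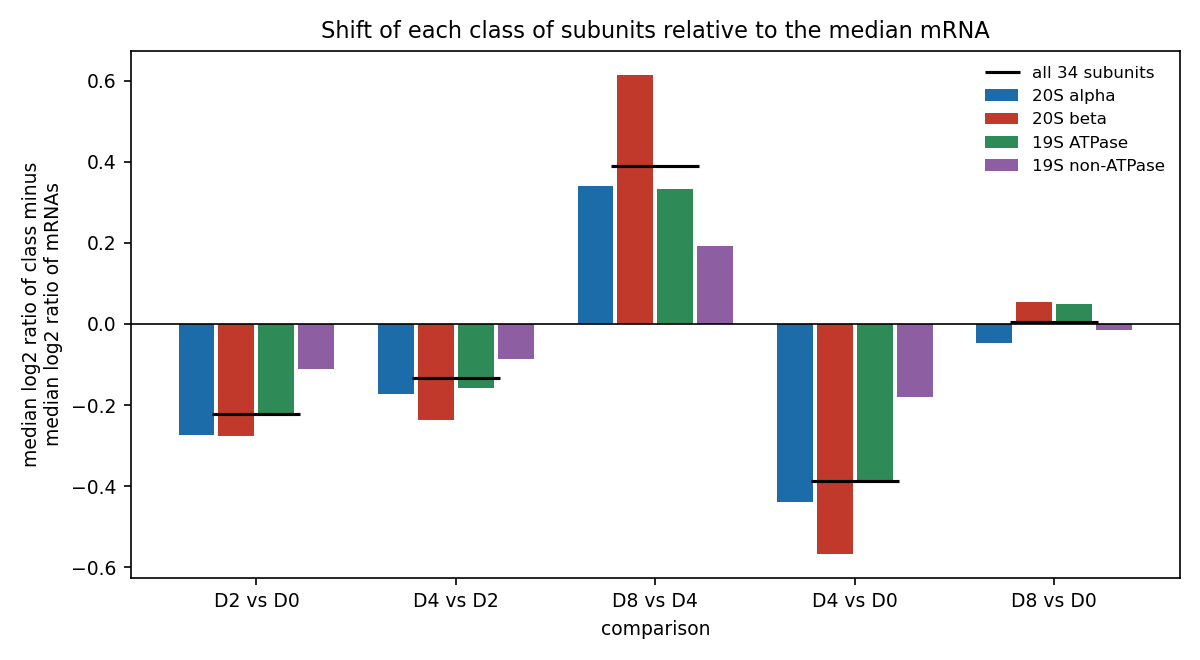
Median log2 ratio of each class of subunits minus the median log2 ratio of all reliably expressed mRNAs, in the 5 comparisons, with the median over all 34 subunits as a black line. The beta ring (7 genes) has the tallest bars for D4 vs D0 and for D8 vs D4, at -0.57 and 0.61.

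Within each library the subunits spanned a wide range of levels, which their ranks kept. The most abundant exceeded the least abundant 27.9, 20.8, 16.6 and 30.4 times in FPKM at the successive stages. Spearman's rho of the levels over the 34 genes was between 0.95 (D0 and D4) and 0.99 (D0 and D8). Each pair of values shares a gene length, and rho is therefore a description. The median beta subunit stood at 1.85, 1.60, 1.56 and 1.71 times the median ATPase.

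Subunits with a short gene model differed from those with a long one. The length used for FPKM, worked out from the deposited values, ran from 619 bases for PSMA1 to 3827 for PSMD12, but it is the smallest that makes the reads whole, and that of PSMA1 in particular may be a fraction of the true one. Over the 34 genes, Spearman's rho between length and log2 ratio was 0.48 for D4 vs D0 and -0.57 for D8 vs D4, as a description. Over the 9191 mRNAs the same values were 0.10 and -0.22. Between D8 and D4, the 8 subunits under 1000 bases had a median log2 ratio of 0.40 and the 706 mRNAs of that length one of 0.06, PSMA1 being counted among the 8 by the length found. The 4 subunits of 3000 bases or more (PSMD1, PSMD6, PSMD11 and PSMD12) had log2 ratios from -0.63 (PSMD11) to 0.054 (PSMD6), on both sides of the median of -0.32 of the 5004 mRNAs of that length. The part of length in the differences between classes was not tested. Between D4 and D0, mRNAs with a mean of 10 to 50, 50 to 100, 100 to 200 and over 200 FPKM had median log2 ratios of -0.027, -0.14, -0.22 and 0.0066, and the 9, 11, 11 and 3 subunits in these ranges had -0.13, -0.35, -0.35 and -0.50. The 5106 mRNAs under 10 FPKM, where no subunit lay, had 0.16, so that the medians of mRNAs had no single direction over all ranges. Between D8 and D4, however, they rose with level, from -0.34 under 10 FPKM to -0.14, 0.023, 0.087 and 0.11 in the same ranges. The subunits in these ranges had -0.11, 0.20, 0.32 and 0.43. The part of level in the differences was not tested.

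**Figure D4:**
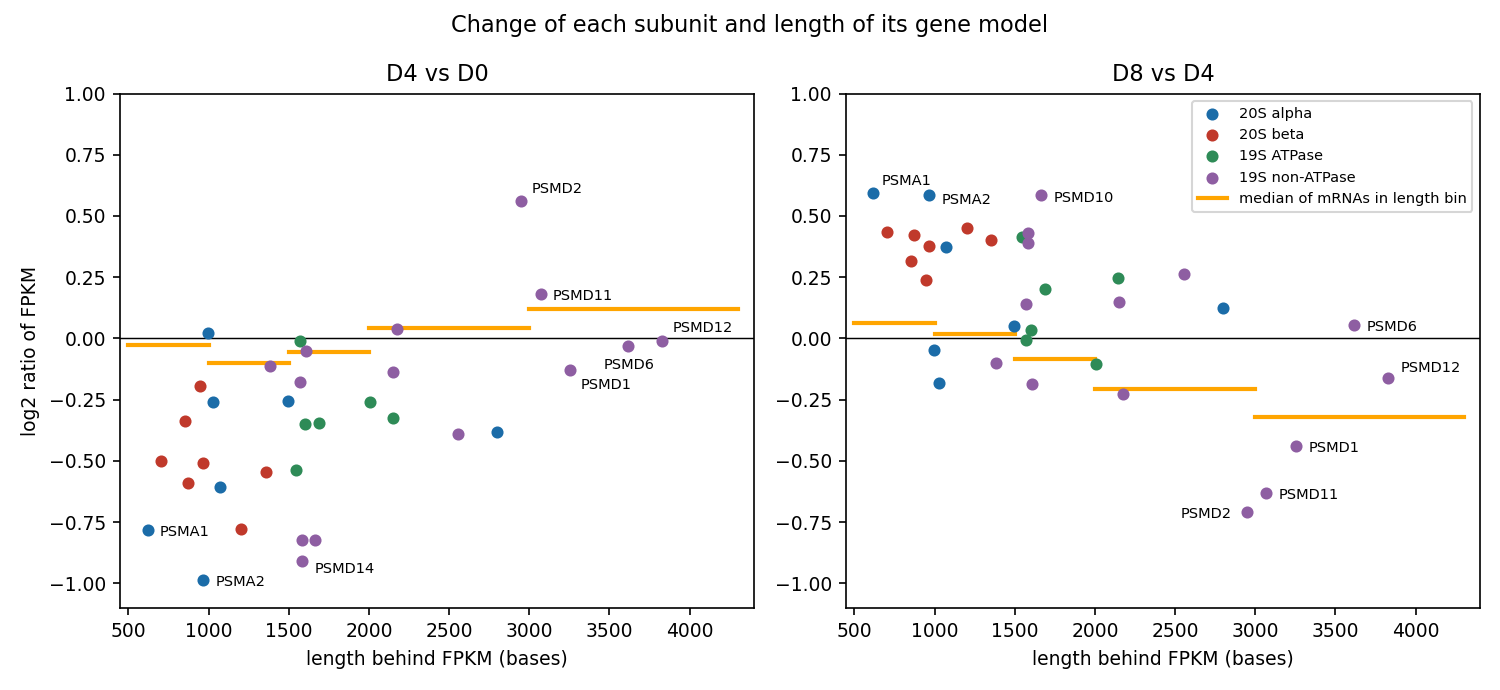
Log2 ratio of FPKM against the length behind FPKM in bases for the 34 subunits, coloured by class, for D4 vs D0 and D8 vs D4, with the median of all reliably expressed mRNAs in each range of length as an orange line. In D8 vs D4 the line runs from 0.06 under 1000 bases to -0.32 at 3000 bases or more, and the beta subunits lie above it.

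Other genes of the pathway were taken from lists of known members, as far as they were listed. The counts of these lists for D4 vs D0 stand beside 46.2% of all reliably expressed mRNAs lower and 53.8% higher. The immunosubunits PSMB8, PSMB9 and PSMB10 replace the catalytic beta subunits in immune cells and after interferon, and they were far below the standard ones. PSMB8 had 5.92, 2.39, 3.20 and 6.52 FPKM, with a log2 ratio of -1.31 between D2 and D0 and 1.03 between D8 and D4. PSMB9 had 4.21, 2.32, 2.34 and 3.69 FPKM, and PSMB10 had 15.3, 13.1, 22.1 and 16.3 FPKM. PSMB8 and PSMB9 were thus low at D2 and D4 like PSMB5, PSMB6 and PSMB7, whereas PSMB10 was highest at D4. PSMA8 and PSMB11, the subunits of testis and thymus, were among the symbols sought and were not analysed here.

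The activators that open the core without the 19S cap included genes that were highest at D4, where the summed FPKM of the core was lowest. Of all reliably expressed mRNAs, 37.3% were highest at D4. PSME1, which forms the 11S cap with PSME2, had 28.5, 54.6, 88.3 and 36.9 FPKM. Its log2 ratio was 1.63 (1.56 to 1.70) between D4 and D0 and -1.26 (-1.33 to -1.18) between D8 and D4. PSME2 had 72.1, 76.7, 132 and 99.9 FPKM, so that both partners were highest at D4. Of the 5 genes of this list, PSME3, PSME4 and the inhibitor PSMF1 included, 3 were higher and 2 lower at D4 than at D0, with a median log2 ratio of 0.54. The 2 lower ones were PSME4 (19.1, 14.9, 16.4 and 21.2 FPKM) and PSMF1 (5.22, 4.09, 4.84 and 5.26 FPKM), both lowest at D2.

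NGLY1 had the largest difference of the pathway. This cytosolic N-glycanase strips glycans from misfolded glycoproteins and from NFE2L1, the transcription factor that drives proteasome genes when proteasome activity is short. It had 32.4, 6.13, 7.46 and 21.7 FPKM, with log2 ratios of -2.40 between D2 and D0 and 1.54 (1.42 to 1.66) between D8 and D4. NFE2L1 itself had 25.3, 33.6, 33.8 and 21.9 FPKM and its relative NFE2L2 10.2, 10.7, 11.5 and 10.2 FPKM. NFE2L1 was thus higher in the 2 libraries in which NGLY1 and the summed FPKM of the subunits were lower. A link between them was not tested. The median log2 ratio of these 3 genes between D4 and D0 was 0.18.

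UBB, a polyubiquitin gene, had 1031, 1073, 859 and 983 FPKM and was lowest at D4, with a log2 ratio between D4 and D2 of -0.32. UBA6, an enzyme that activates ubiquitin, had 7.08, 3.44, 3.76 and 5.02 FPKM with a log2 ratio of -1.04 between D2 and D0, whereas the main activating enzyme UBA1 had 45.5, 43.8, 53.5 and 39.1 FPKM. UBA6 was thus lowest at D2 and UBA1 at D8.

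Among the 9 shuttle factors and genes of the VCP segregase, which deliver substrates to the cap, 6 were lower at D4 than at D0 (46.2% of mRNAs), with a median log2 ratio of -0.14, and 8 were lower at D8 than at D4 (64.9% of mRNAs), with a median of -0.37 against -0.21 for all mRNAs. UBQLN2 had 4.11, 4.06, 6.71 and 2.87 FPKM, with -1.22 between D8 and D4. UBQLN4 had 2.59, 1.22, 1.73 and 1.13 FPKM, with -1.09 between D2 and D0 and -1.19 between D8 and D0. Both are ubiquilins, and they differed in order, UBQLN2 being highest at D4 and UBQLN4 at D0. Of the 6 cap subunits and partners with other names, 4 were lower at D4 than at D0 (median -0.23). The ubiquitin ligase UBE3C, which extends chains on proteins held by the proteasome, was the exception in size, with 3.62, 4.53, 6.28 and 2.49 FPKM and -1.33 (-1.46 to -1.22) between D8 and D4. The 5 assembly chaperones PSMG1 to PSMG4 and PAAF1 were all lower at D4 than at D0 (median -0.19). They were also lower at D8 than at D0 as deposited (median -0.29), against 68.5% of mRNAs and a median of -0.18 for all mRNAs. PSMG2 (-0.039) and PSMG3 (-0.10) were lower by less than the 0.16 that median-ratio scaling adds in this comparison.

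**Figure D5:**
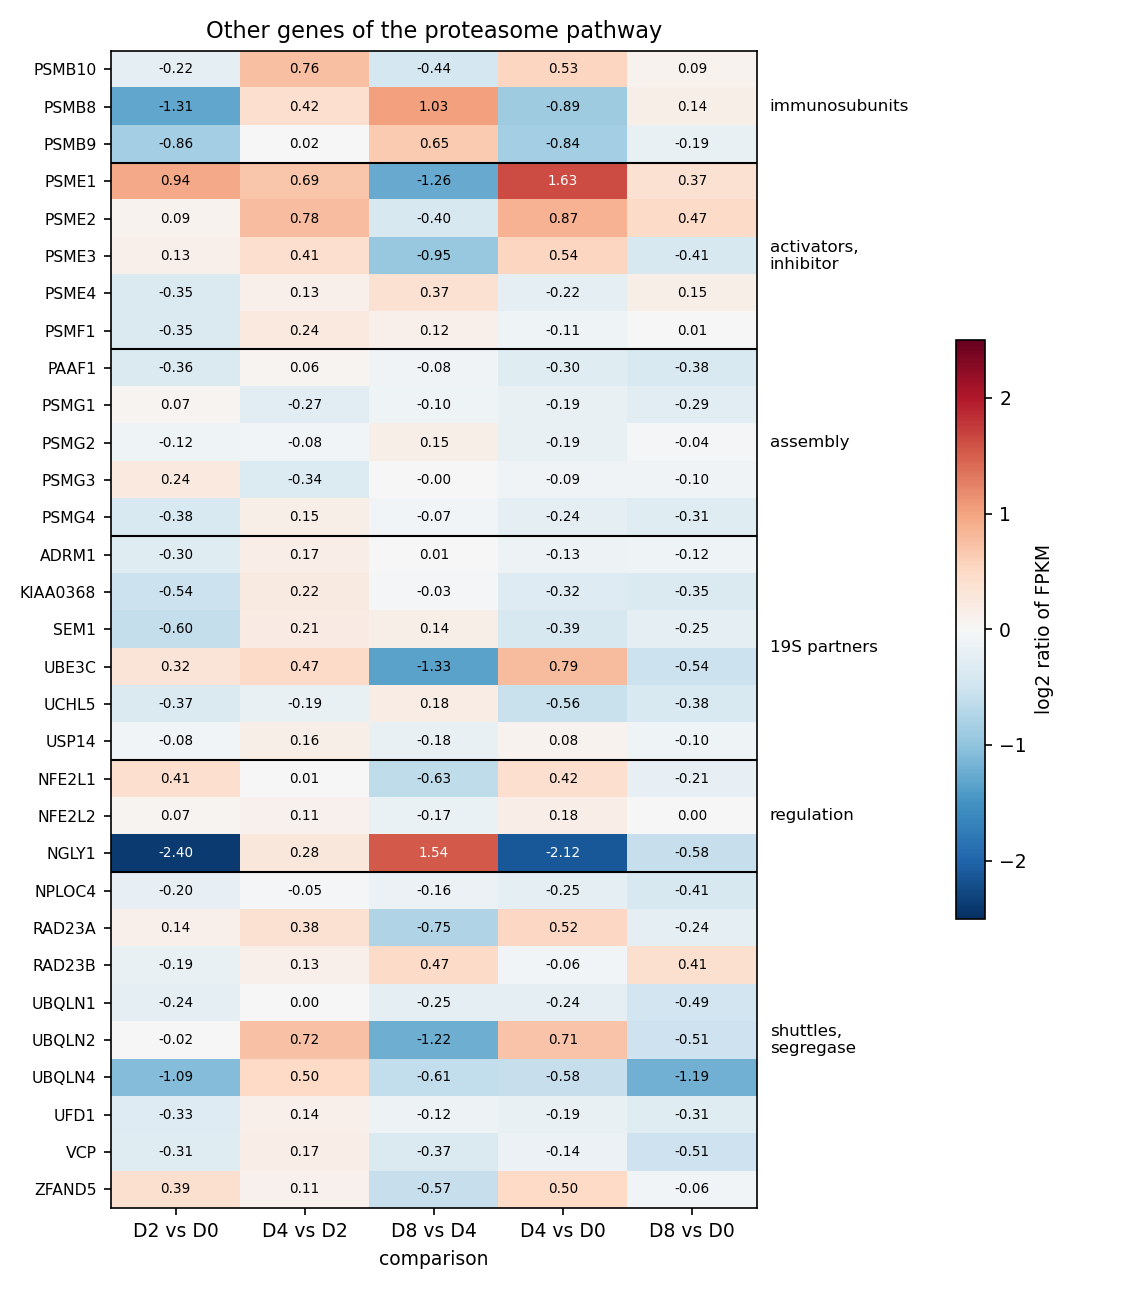
Log2 ratio of FPKM of other genes of the proteasome pathway, from 6 lists, in the 5 comparisons, printed in each cell and coloured from blue (lower) to red (higher), with horizontal lines between the lists. NGLY1 has the lowest ratio (-2.40, D2 vs D0) and PSME1 the highest (1.63, D4 vs D0).

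Other complexes of many subunits are given for scale. The 8 subunits of the chaperonin TRiC, which folds actin and tubulin, were all lower at D4 than at D0 (46.2% of mRNAs), with a median log2 ratio of -0.43. They were also all lower at D8 than at D0 (68.5% of mRNAs), with a median of -0.38 against -0.18 for all mRNAs. Of the COP9 signalosome, which resembles the lid of the proteasome, 8 of the 9 symbols sought were listed. Of these 8 subunits, 7 were lower at D4, with a median of -0.19. COPS8 was the exception, with 33.3, 62.0, 89.8 and 47.4 FPKM and a log2 ratio of 1.43 between D4 and D0. Of the translation factor eIF3, which also shares the fold of the lid, 11 of the 13 symbols sought were listed. Of these 11 subunits, 8 were higher at D4, with a median of 0.23. A lower level at D4 was therefore also seen in TRiC and COP9 and was not common to all 3 complexes, and whether the proteasome differed from them was not tested.

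Start sites within 1000 bases of that of a subunit, on the other strand and pointing away, were found for 12 neighbours, of which 6 were mRNAs. SIRT3, a mitochondrial deacetylase that starts 34 bases from PSMD13, had 3.69, 6.76, 8.005 and 3.60 FPKM, and PSMD13 had 78.2, 77.9, 69.2 and 76.2 FPKM. MRPL32, a mitochondrial ribosomal protein that starts 108 bases from PSMA2, had 6.81, 6.59, 7.13 and 6.09 FPKM. TBP, the TATA-binding protein, 152 bases from PSMB1, had 2.57, 4.21, 3.74 and 2.83 FPKM. All 6 mRNAs (SS18L1 next to PSMA7, DNAJC2 next to PSMC2 and LOC102164650 next to PSMD5 being the others) were higher at D4 than at D0. Of the 9191 reliably expressed mRNAs, 53.8% were higher. SS18L1 (0.537, 1.10, 1.29 and 0.547 FPKM) does not belong to these 9191. Each of the 6 subunits was lower, against 46.2% of the 9191. DNAJC2 was higher by 0.023 on the log2 scale, which is less than median-ratio scaling takes away (-0.055). Of the neighbours that were not mRNAs, TRNAN-GUU next to PSMB3 and LOC106507279 next to PSMA1 (at most 0.0071 FPKM) were lower at D4 and the others higher.

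Circular RNAs were listed for 9 of the 34 genes, with 19 junctions in all. They held 88 of 53207 junction reads at D0, 98 of 43989 at D2, then 83 of 51074 at D4 and 48 of 37480 at D8. PSMC6 alone gave 7 of them, and its ssc_circ_0000367 (chr1:182340847-182341782) had 30, 6, 9 and 10 junction reads. In PSMD14, ssc_circ_0007568 (chr15:68182402-68194828) had 9, 18, 19 and 9 junction reads. The former was thus most frequent at D0 and the latter at D2 and D4, on read numbers too small to carry a ratio. No other circRNA of a subunit exceeded 19 junction reads in a library. A listed value of 0 was taken to allow an expected number of up to 3 junction reads, which is not a number of observed reads. It is worth 19.3 SRPBM (junction reads scaled by mapped reads) at D0 and 25.2 SRPBM at D8. Absence can therefore not be read from a 0.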

How the data were processed

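RNA of the cultures was sequenced in 1 pooled library per stage (D0, D2, D4 and D8). Per the study's methods, the authors aligned clean reads to the pig genome Sscrofa11.1 with HISAT2 2.0.5 and deposited FPKM per gene. Circular junctions came from BWA-MEM alignments and CIRI (2 or more junction reads), and the authors deposited them as SRPBM in the same column. The handling of strand and of reads with several positions is not given in the sources used here.

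Whole reads were worked out from the deposited FPKM. Library totals (75387428, 54987801, 74358922 and 54128151 fragments at D0, D2, D4 and D8) were found from tRNA and miRNA genes, of which 93.4% to 94.9% gave whole reads within 0.001. The smallest length that made the 4 values of a gene whole was then searched for and was found for 9191 of 9191 mRNAs. The true read number may be a multiple of it, in which case the interval is too wide and the length too short. Tested on simulated data for 1000 genes, 96.4% of read numbers were equal and 100% were equal or a whole fraction.

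Ratios were computed as log2(FPKM + 0.01) for 5 comparisons, with exact binomial 95% intervals. Reads are not independent molecules, and intervals and floors (3 reads) cover counting error only. Genes called reached 1.5-fold or 2-fold, without a test. Named with values were the catalytic subunits, the highest and lowest of each class by mean FPKM, the 3 highest and 3 lowest ratios of each comparison, the immunosubunits, UBB and pathway genes past 2-fold. PSMD13, PSME2, PSME4, PSMF1, PSMG2, PSMG3, NFE2L1, NFE2L2, UBA1, the adipocyte markers given with values, overlapping genes, the genes near start sites and the circRNAs were named after their values were seen. The members and lists were chosen with earlier results of these data known. All 34 members were matched to RefSeq by symbol, start and end. Alternatives were pseudocounts of 0.1 and 1, 2 other scalings, no filter, and leaving out the assembly chaperones. Python 3.11.15, pandas 2.3.3 and SciPy 1.17.1 were used. No sequences were used here, and some genes of the pathway lists are not reported here.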

Additional observations from a re-analysis of the deposited data

How the results depend on the processing

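No paired analysis was possible because each stage has 1 pooled library without a replicate number, and for the same reason no library could be left out. A pseudocount of 0.1 and the absence of a filter on low values moved no count or median of the subunits beyond its limits, and with a pseudocount of 1 only 1 subunit, instead of 2, was at least 1.5-fold lower in D8 vs D4. Scaling mattered more. With median-ratio scaling, summed FPKM was 3955 at D0, 2899 at D4 and 3884 at D8. In D4 vs D2 the median log2 ratio was -0.13 for all subunits, -0.17 for alpha, -0.24 for beta, -0.16 for ATPase and -0.087 for non-ATPase subunits. In D8 vs D4 it was 0.39, 0.34, 0.61, 0.33 and 0.19 in the same order, with 11 subunits at least 1.5-fold higher and 0 lower. In D4 vs D0 it was -0.38, -0.44, -0.56, -0.39 and -0.18, with 1 subunit at least 2-fold lower. In D8 vs D0 it was -0.023, -0.075, 0.026, 0.023 and -0.043. PSMA6 (0.17), PSMC5 (0.10) and PSMD4 (0.11) in D8 vs D4 and PSMC2 (0.081) and PSMB3 (0.090) in D8 vs D0 changed direction. With scaling to the total of mRNA FPKM, summed FPKM was 3975, 3445, 3112 and 3482 at D0, D2, D4 and D8. In D2 vs D0 the median log2 ratio was -0.14 for all, -0.19 for alpha, -0.19 for beta, -0.14 for ATPase and -0.026 for non-ATPase subunits, with 3 subunits at least 1.5-fold lower, and PSMB4 (0.036) changed direction. In D4 vs D2 it was -0.11, -0.15, -0.22, -0.14 and -0.066 in the same order, in D8 vs D4 it was 0.13, 0.077, 0.35, 0.070 and -0.071, with 0 subunits at least 1.5-fold higher, and in D4 vs D0 it was -0.29, -0.34, -0.47, -0.29 and -0.082, with 1 subunit at least 1.5-fold higher. These moves follow from the scaling itself, which shifts all genes of a library alike. The distance between the median subunit and the median mRNA was -0.22 (D2 vs D0), -0.13 (D4 vs D2), 0.39 (D8 vs D4), -0.39 (D4 vs D0) and 0.00 (D8 vs D0), and it was the same to 2 decimals under both scalings. Without PSMD5, PSMD9 and PSMD10 summed FPKM was 3962, 3192, 3020 and 3488. With 1 library per stage, the spread among piglets and among library preparations was not measured, and depth limits only the counting error.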
